A study of Mus musculus with 2 samples.

Results

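Sox10, Foxd3, Ngfr, Phox2a, Hand2, Th, Dbh and Ret are genes of the neural crest and of the sympathoadrenal cells that arise from it. These 8 of the 31053 genes in the count tables were taken by name as a set and were followed in single cells of the aorta-gonads-mesonephros (AGM) region, the tissue around the dorsal aorta where blood stem cells first form. Whole AGM regions of E11 mouse embryos were dissociated with collagenase, loaded for 7000 cells and processed on the 10x Chromium. There was 1 library of PDGFRB +/+ embryos (WT) and 1 of PDGFRB -/- embryos (KO), both of the same stage and tissue. The study kept the knockout line as heterozygotes on a C57BL/6J background. The labels do not say how many embryos entered a library. With 1 library per genotype there was no test between genotypes, and every interval given below is a 95% exact interval that covers counting error only.

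Neural crest cells leave the dorsal neural tube and migrate past the dorsal aorta, where some of them become sympathetic neurons and chromaffin cells. Sox10 and Foxd3 are transcription factors of migrating crest and Schwann cell precursors, and Ngfr encodes the p75 neurotrophin receptor on the same cells. Phox2a and Hand2 are transcription factors of the autonomic lineage. Th, tyrosine hydroxylase, makes DOPA in the rate-limiting step of catecholamine synthesis, and Dbh, dopamine beta-hydroxylase, turns dopamine into noradrenaline. Ret is the signalling receptor for the GDNF family and works with GFRα coreceptors in sympathetic and enteric precursors and in the nephric duct.

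Cells were barcodes with at least 2000 UMIs (unique molecular identifiers, 1 per captured RNA molecule) and under 10% mitochondrial UMIs. This left 8253 WT cells with a median of 13321 UMIs and 8165 KO cells with a median of 12391, from 179743201 and 174597654 UMIs in all. A cell passed a glial crest gate with a UMI of at least 3 of 8 genes (among them Erbb3, Cdh19, Zfp536, Lgi4, Gfra3 and Fabp7), and an autonomic gate with at least 3 of 8 genes, 1 of which was required (among them Stmn2, Elavl3, Elavl4, Prph, Insm1 and Gap43). The gates held none of the 8 genes described here. Crest cells were those that passed either or both of these gates and none of 11 gates for other lineages. They numbered 191 in WT, 2.31% of cells (2.0% to 2.66%), and 193 in KO, 2.36% (2.05% to 2.72%). The intervals overlapped here, but not with a mitochondrial limit of 5%, at 1.56% (1.18% to 2.02%) in WT and 2.85% (2.27% to 3.52%) in KO. In WT, 62 passed the glial gate alone, 76 passed both and 53 the autonomic gate alone. In KO these numbers were 66, 60 and 67. None of the 8 genes had a UMI in 15 of the 191 WT and 9 of the 193 KO crest cells. Among these were WT glial cells of 57926 and 34211 UMIs and a KO glial cell of 23988. Whether such cells were crest was not tested. Crest genes outside the gates were found unevenly in these cells. In CPM (UMIs of the gene per 1e6 UMIs), the endothelin receptor Ednrb was at 492 in WT and 641 in KO. In the autonomic class it was at 5.84 and 35.1. The transcription factor Tfap2b was at 76.9 and 59.7, but at 17.1 and 16.5 in the glial class. The 12 crest transcription factors listed below, Tfap2b among them, summed to 419 and 397, against 49.3 and 119 in erythroid cells and macrophages. Their levels varied, and Zic1 had 3 UMIs in WT. No cell passed the neural tube gate, and 0 WT and 2 KO cells fell in the sensory neuron class. Markers of other lineages were not absent: the 7 smooth muscle genes summed to 278 CPM in WT and 191 in KO crest cells with 2 of them at 0 in each, the 7 sclerotome genes to 50.4 and 43.9 with 1 at 0, and the 8 macrophage genes to 22.2 and 3.21 with 2 and 3 at 0. In the autonomic class the 7 sensory genes summed to 97.0 CPM in WT and 121 in KO, with 2 and 6 at 0, and the 7 neural tube genes to 39.7 and 41.6, with 6 at 0 in each, against at most 0.717 CPM for either list in erythroid cells and macrophages. A further 203 WT and 166 KO cells passed a crest gate together with a gate of another lineage and were held apart. Their median of 46711 and 37788 UMIs was above the 18904 and 16798 of crest cells, and 70.9% and 61.4% of them passed the smooth muscle gate. No doublet caller was run. What part of these cells were droplets with more than 1 cell was not tested.

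The libraries differed in more than genotype. Pdgfrb, the targeted gene, stood at 43.1 CPM in WT and 7.09 in KO over all cells, with a UMI in 33.8% of WT and 9.81% of KO cells, and at 37 and 3 UMIs in crest cells. The study removed KO cells with Pdgfrb, which were kept here, and removing them left 190 of the 193 KO crest cells. Xist was at 793 CPM in WT and 0.415 in KO, and 4 Y-linked genes summed to 1.89 and 163 CPM, so the libraries also differed in sex. Barx1, a gene of stomach mesenchyme, was at 35.1 CPM in WT and 0.724 in KO. Genotype, embryo, sex and dissection therefore cannot be told apart. Of the cell barcodes, 20 occurred in both libraries, and none of these was a crest cell in both.

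Promoter sequence is shown for Th and Foxd3, whose 250 bases upstream of the RefSeq start hold the palindrome TGACGTCA, the cyclic AMP response element, which 1.55% of all 32851 promoter windows of the same length hold. The Th stretch lies on the minus strand at chr7:142900015-142900245, and the 19 bases nearest the RefSeq start were left out because they are exonic in GENCODE. It lies inside the GENCODE span of Th, 142892752 to 142931128, since the GENCODE gene starts further upstream than the RefSeq start used here. The Foxd3 stretch lies on the plus strand at chr4:99656049-99656298 and overlaps no GENCODE exon. Capitals mark TGACGTCA and the homeodomain core ATTA, searched on both strands, so that ATTA on the other strand reads TAAT. Both are from RefSeq on GRCm38.p6.
Th: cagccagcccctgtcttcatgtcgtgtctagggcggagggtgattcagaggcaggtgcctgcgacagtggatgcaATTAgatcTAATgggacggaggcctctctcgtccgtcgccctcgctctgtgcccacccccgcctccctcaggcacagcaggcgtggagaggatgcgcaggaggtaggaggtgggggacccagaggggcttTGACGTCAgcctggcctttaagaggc
Foxd3: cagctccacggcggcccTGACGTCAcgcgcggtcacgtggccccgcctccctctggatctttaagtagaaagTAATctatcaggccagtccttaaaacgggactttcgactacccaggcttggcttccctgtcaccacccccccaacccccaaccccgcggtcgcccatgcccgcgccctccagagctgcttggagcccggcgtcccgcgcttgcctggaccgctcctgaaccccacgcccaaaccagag
The palindrome began 45 bases before the Th start and 233 bases before the Foxd3 start. Th held ATTA at 2 places and Foxd3 at 1, against 54.9% of all windows with at least 1. Of the 8 genes, 6 were in the promoter table, Sox10 and Ret not among them. Dbh held 3 matches of ATTA, Hand2 held 5, and Ngfr and Phox2a held none. The E-box CANNTG, searched on both strands and present in 66.2% of all windows, had 2 matches each in Ngfr, Hand2 and Dbh, 1 each in Foxd3 and Th, and none in Phox2a. All 250 bases of the Dbh and Hand2 windows are exonic in GENCODE, so all their matches lie in exons. In the Ngfr window 37 bases are exonic, and they hold the E-box that begins 25 bases before its start. The SOX cores ACAAAG and ACAATG, in 16.5% and 10.7% of all windows, were in none of the 6 windows on either strand. Such matches describe letters in a window and are no evidence of binding.

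The 8 genes split into a precursor group and a sympathoadrenal group by the classes in which they were found. Sox10, Foxd3 and Ngfr were found in most cells that passed the glial gate and in few that passed the autonomic gate alone. Phox2a, Hand2, Th and Dbh ran the other way, and Ret was found in cells of the autonomic gate with or without glial markers. CPM was taken over the summed UMIs of all cells of a class. A 3′ UMI counts a molecule once, so CPM was not divided by transcript length, and levels are compared below between classes or libraries, not between genes.

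**Figure D1:**
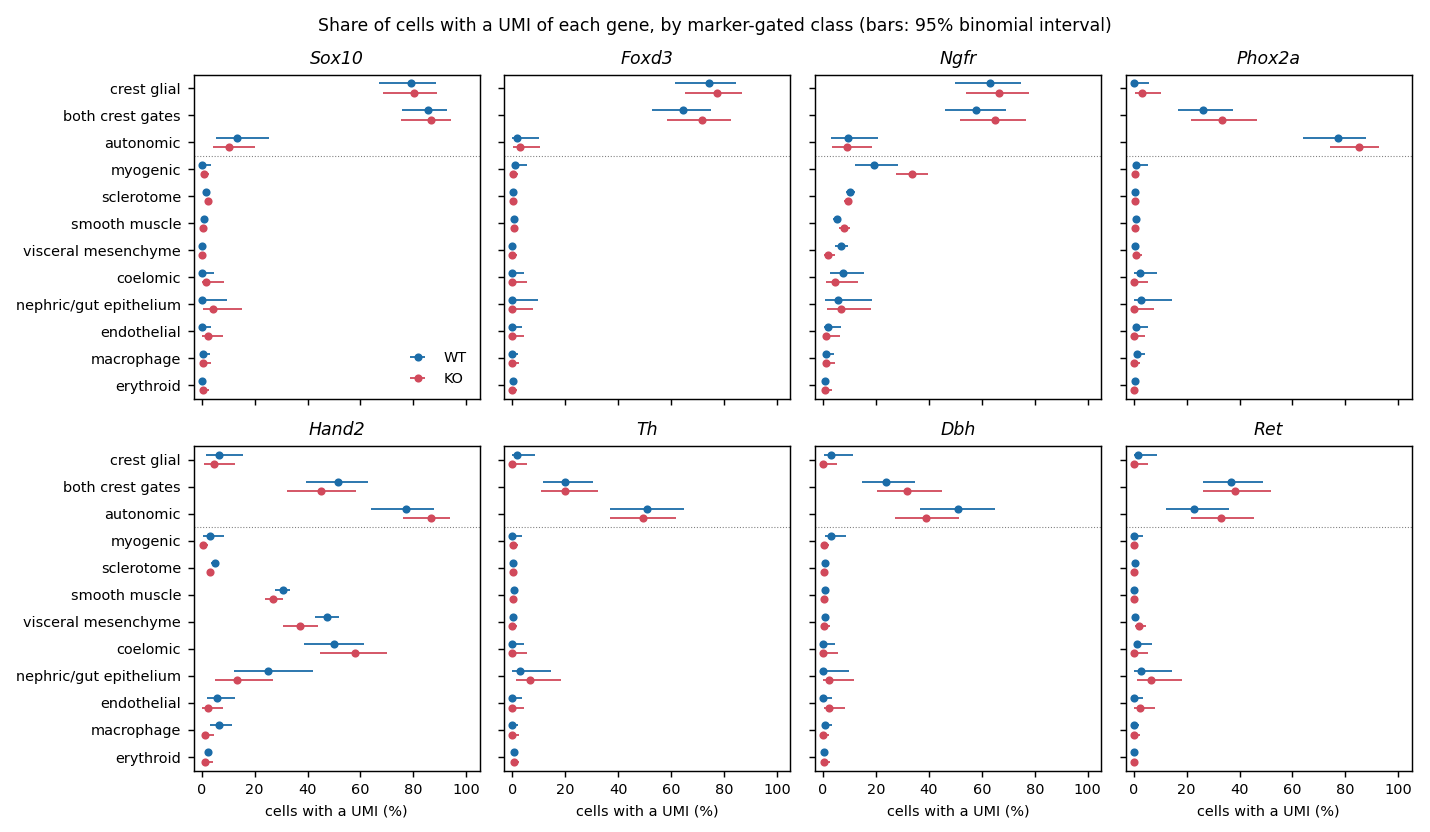
Share of cells with at least 1 UMI of each gene (horizontal axis, percent) in 12 marker-gated classes (rows) of WT (blue) and KO (red), with 95% binomial intervals. The dotted line parts the crest classes from the others. Sox10, Foxd3, Phox2a, Th, Dbh and Ret reach at most 6.67% in the classes outside the crest, while Hand2 reaches 50% of WT and 57.8% of KO coelomic cells.

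Sox10, on chromosome 15 (79154908 to 79165240, minus strand, GRCm38), was at 204 CPM (179 to 231) in the glial class, 165 (148 to 183) in the class of both gates and 15.2 (8.09 to 26.0) in the autonomic class of WT. In KO the same classes held 181 (160 to 204), 127 (111 to 144) and 11.7 (5.35 to 22.2) CPM. In each library the glial and both-gate classes lay above the autonomic class with no overlap of intervals. Sox10 was detected in 49 of the 62 glial cells of WT and in 53 of the 66 of KO. Detection went with the number of glial markers in a cell. With 3 of the 8 markers, 10 of 26 WT and 14 of 26 KO crest cells had a Sox10 UMI, and with 7 markers, 36 of 36 and 40 of 40 did.

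Foxd3 (chromosome 4, 99656299 to 99658622, plus strand) was at 132 CPM (113 to 154) in the glial class, 72.9 (61.9 to 85.3) in the class of both gates and 2.34 (0.283 to 8.44) in the autonomic class of WT. In KO these were 140 (121 to 161), 99.6 (85.6 to 115) and 2.60 (0.315 to 9.40) CPM. The order glial, both, autonomic held in both libraries without overlap of neighbouring intervals. Of autonomic cells, 1 of 53 in WT and 2 of 67 in KO had a Foxd3 UMI. Ngfr (chromosome 11, 95568818 to 95587735, minus strand) followed the same order, with 90.2 (74.2 to 109), 46.3 (37.6 to 56.3) and 9.35 (4.04 to 18.4) CPM in WT and 110 (94.0 to 129), 70.6 (58.9 to 83.9) and 9.10 (3.66 to 18.8) in KO. No crest cell had many molecules of these genes. The highest cell held 19 Sox10, 13 Foxd3 and 8 Ngfr UMIs in WT, and 31, 18 and 16 in KO.

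**Figure D2:**
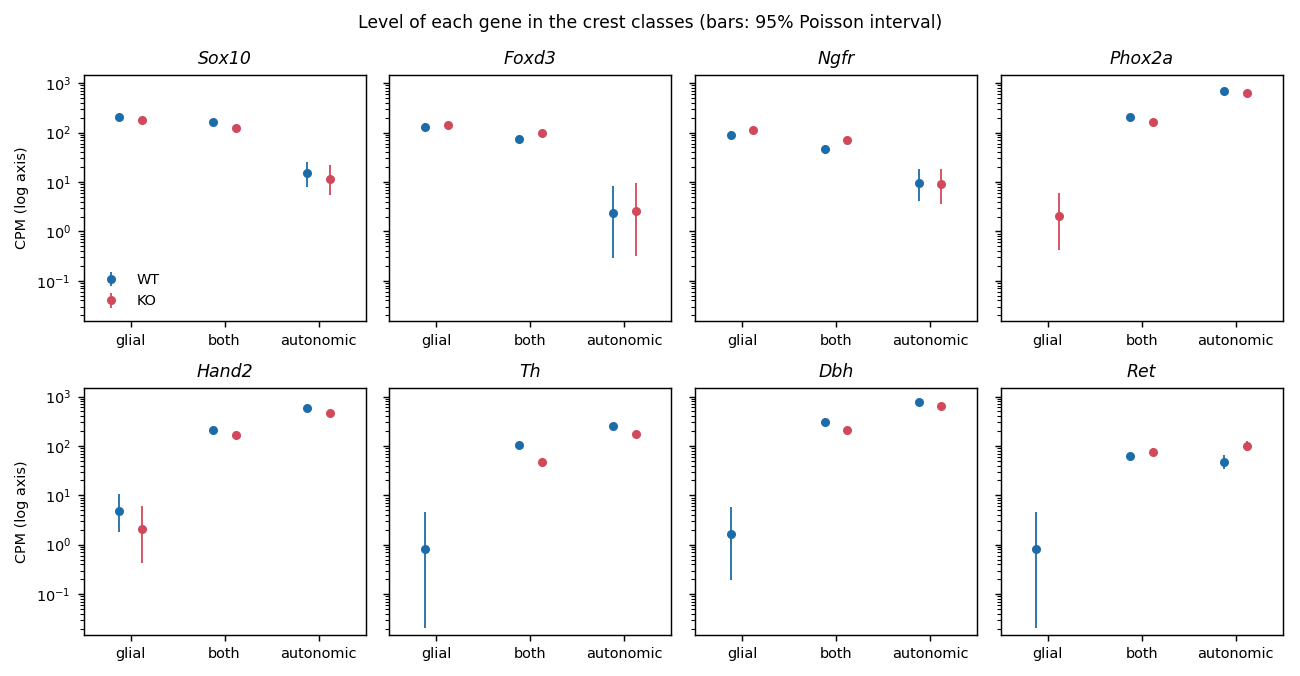
CPM (vertical log axis) of each gene in the glial class, the class of both gates and the autonomic class of WT (blue) and KO (red), with 95% Poisson intervals. A class with no UMI of a gene has no point. Sox10, Foxd3 and Ngfr descend from left to right, and Phox2a, Hand2, Th and Dbh ascend in both libraries, for example Phox2a to 710 CPM in WT autonomic cells.

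Phox2a (chromosome 7, 101818313 to 101822726, plus strand) was at 0 UMIs in the WT glial class, where 3 UMIs would have been 2.44 CPM, at 204 CPM (185 to 224) in the class of both gates and at 710 (655 to 769) in the autonomic class. In KO it was at 2.06 (0.424 to 6.01), 166 (148 to 186) and 627 (572 to 685) CPM. Of autonomic cells, 41 of 53 in WT and 57 of 67 in KO held Phox2a molecules. Hand2 (chromosome 8, 57320983 to 57324633, plus strand) ran in the same order of classes, at 4.87 (1.79 to 10.6), 213 (194 to 233) and 572 (523 to 625) CPM in WT and at 2.06 (0.424 to 6.01), 169 (151 to 189) and 464 (417 to 515) in KO. Both transcription factors were thus found in most autonomic cells and in few glial cells.

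The enzymes were detected in fewer autonomic cells than these factors. Detection depends on depth, and this class had a median of 7326 UMIs in WT and 6933 in KO. What part of the difference came from shallow cells was not tested. Th (chromosome 7, 142892752 to 142931128, minus strand) had a UMI in 27 of 53 WT autonomic cells, 50.9% (36.8% to 64.9%), and in 33 of 67 KO cells, 49.3% (36.8% to 61.8%). Dbh (chromosome 2, 27165233 to 27183200, plus strand) had one in 27 of 53, 50.9%, and 26 of 67, 38.8% (27.1% to 51.5%). Of glial cells, 1 WT and 0 KO cells had a Th UMI, and 2 WT and 0 KO cells a Dbh UMI. Th was at 254 CPM (221 to 290) in WT and 170 (142 to 202) in KO autonomic cells, and Dbh at 787 (729 to 849) and 645 (589 to 704).

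The molecules of both enzymes sat in few cells. The 5 highest crest cells held 48.4% of WT and 53.2% of KO Th UMIs and 45.3% and 60.9% of Dbh UMIs, against 12.3% and 21.4% for Sox10. The highest WT cells held 81, 39, 35 and 33 Th UMIs, and the highest KO cells 30, 29, 21 and 20. For Dbh these were 175, 122, 121 and 107 in WT and 202, 155, 68 and 65 in KO. The highest KO cell for Dbh, of the autonomic class, held 88901 UMIs in all. The median among cells with a Th UMI was 4 UMIs in WT and 1 in KO, and 13 WT and 24 KO cells had exactly 1. CPM of Th and Dbh over a class therefore rests on a handful of cells, which the Poisson interval does not show. The same limit holds for Ret, whose highest crest cells held 25, 21, 12 and 11 of 174 UMIs in WT. In KO they held 32, 19, 17 and 15 of 215. In the class of both gates, 20 of 76 WT and 20 of 60 KO cells had a Phox2a UMI. The highest KO cells of that class held 82, 65 and 45 of 304 Phox2a UMIs and 72, 66 and 39 of 309 Hand2 UMIs.

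Ret (chromosome 6, 118151745 to 118197718, minus strand) was near 0 in the glial class, as were the sympathoadrenal genes. Unlike them, it did not clearly rise from the class of both gates to the autonomic class. It was at 0.812 CPM (1 UMI) in the WT glial class and at 0 UMIs in the KO one, but at 61.7 (51.6 to 73.2) and 75.5 (63.4 to 89.2) CPM in the class of both gates and at 47.9 (34.4 to 65.0) and 100 (79.0 to 125) in the autonomic class. The intervals of this last pair of classes overlapped in both libraries. Of the GDNF family and its coreceptors, Gfra3 was at 72.2 CPM in WT and 67.6 in KO crest cells, Gfra1 at 40.2 and 48.6 and Gfra2 at 19.9 and 27.1. Gfra3 is one of the glial gate genes. The ligands Gdnf, Nrtn, Artn and Pspn and the coreceptor Gfra4 had fewer than 50 UMIs over both libraries, and Pspn had none. The ligands were at or under 0.987 CPM in crest cells.

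Outside the crest, Hand2 and Ngfr were the members found above background in large classes. Erythroid cells and macrophages together served as background for free RNA, with a median depth of 16438 UMIs in 848 WT and 18186 in 361 KO cells. There, 3.18% of WT and 1.39% of KO cells had a Hand2 UMI, and for the other genes the share was at most 0.825% in WT and 1.11% in KO. Hand2 UMIs were in 40 of 80 WT and 37 of 64 KO coelomic cells, in 47.3% (42.7% to 52.1%) and 37.2% (30.7% to 44.0%) of visceral mesenchyme cells, and in 30.6% (27.8% to 33.5%) and 27.1% (23.8% to 30.6%) of smooth muscle cells. These shares were above the background in both libraries at depths of 13748 to 17400 UMIs. Crest cells held 14.4% of all Hand2 UMIs in WT and 18.1% in KO. Hand2 is known in lateral mesoderm and heart as well as in autonomic neurons.

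Ngfr UMIs were in 19 of 99 WT and 83 of 248 KO myogenic cells, or 14.8 CPM (9.91 to 21.2) and 30.8 CPM (25.7 to 36.5), and in 10.3% and 9.36% of sclerotome cells. Of all Ngfr UMIs, 18.0% in WT and 17.8% in KO were in crest cells, so most molecules of this crest marker came from other cells. Ret was in 1 of 36 WT and 3 of 45 KO nephric and gut epithelial cells, with 3 and 14 UMIs. With so few cells its share there ran from 0.0703% to 14.5% and from 1.40% to 18.3%.

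Against all other cells of its library, each of the 8 genes was higher in crest cells. In both WT and KO, 6 of the 8 were at least 10-fold higher, as were 1.28% of 14969 genes in WT and 1.38% of 14890 in KO (genes with 50 UMIs or more, gate genes left out). The fold was 39.3 in WT and 49.2 in KO for Foxd3, 34.2 and 50.5 for Sox10, 27.9 and 61.4 for Phox2a, 21.5 and 28.4 for Th, 19.95 and 50.8 for Dbh, and 13.1 and 48.8 for Ret. Ngfr, at 7.60 and 7.37, and Hand2, at 5.79 and 7.56, were the exceptions. The other cells include those that passed a crest gate together with another gate, which held 61.9% of WT and 35.3% of KO Dbh UMIs and 63.0% and 25.5% of Ret UMIs.

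Within crest cells, genes of a group were often detected in the same cells. Of 96 WT cells with a Foxd3 UMI, 90 had a Sox10 UMI (93.8%, 86.9% to 97.7%), against 31 of 95 without one (32.6%). In KO these were 88 of 96 (91.7%) and 24 of 97 (24.7%). Of 88 WT and 89 KO cells with Ngfr, 80 and 80 had Sox10. Of 121 WT and 112 KO Sox10 cells, 74.4% and 78.6% had Foxd3. The mix of classes favours these contrasts, since nearly all cells of the autonomic class were among those without Foxd3. Sox10 was in 7 of 53 WT and 7 of 67 KO autonomic cells, and Foxd3 in 1 and 2.

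In the sympathoadrenal group both enzymes and their transcription factors went together. Of 43 WT cells with Th, 34 had Dbh (79.1%, 64.0% to 90.0%), 38 had Phox2a and 41 had Hand2, and without Th, 13 of 148 had Dbh (8.78%). Of 45 KO cells with Th, 29 had Dbh (64.4%, 48.8% to 78.1%), 41 had Phox2a and 42 had Hand2. The WT and KO shares of Th cells with Dbh overlapped in their intervals. The mix of classes favours the contrast with cells without Th, which include nearly all of the glial class. Dbh was in 2 of 62 WT and 0 of 66 KO glial cells. Phox2a and Hand2 were found beyond the enzyme-positive cells: of 61 WT and 79 KO Phox2a cells, 56 and 72 had Hand2, but 38 and 41 had Th. Ret cells had Hand2 in 36 of 41 WT and 39 of 45 KO cells and Dbh in 25 and 30, and Sox10 in 24 and 25. Sox10 was as frequent in cells without Ret, at 97 of 150 and 87 of 148.

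**Figure D3:**
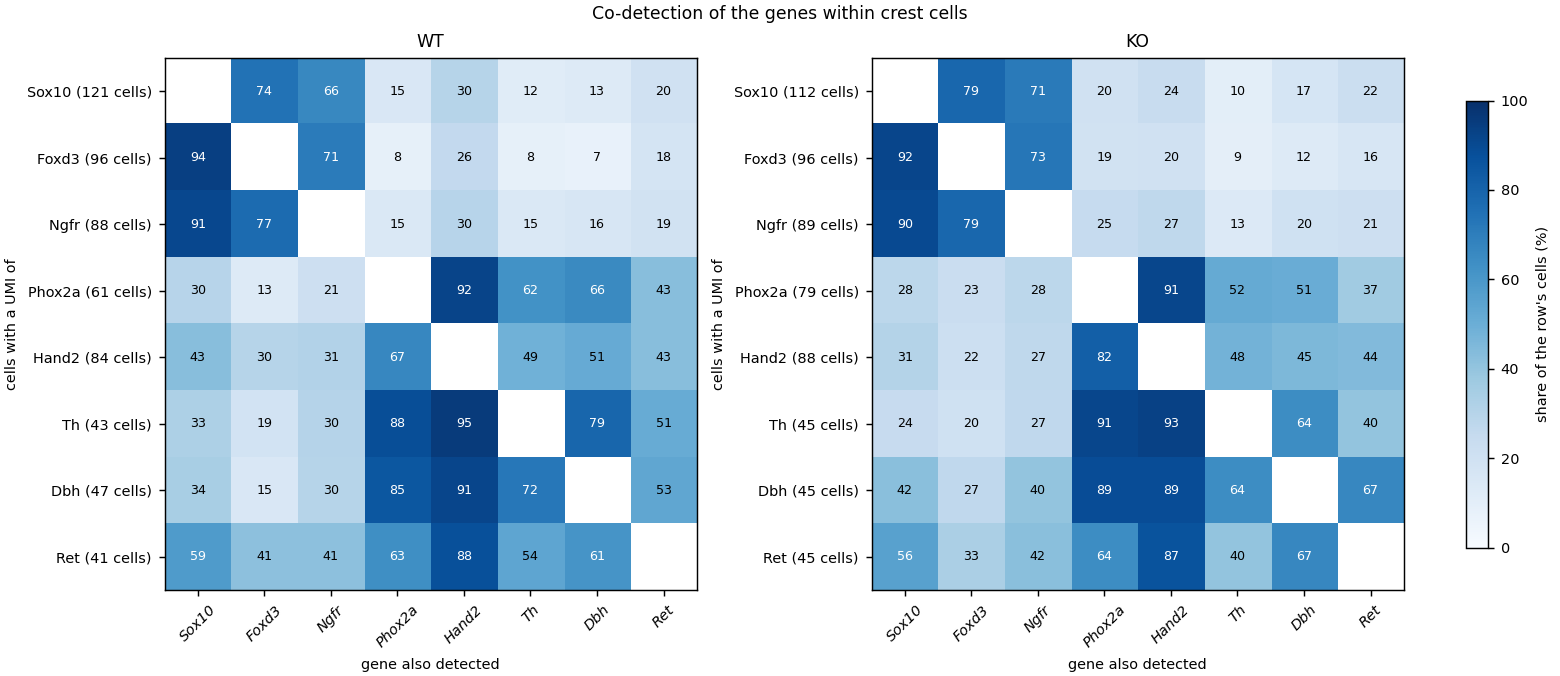
Percent of crest cells with a UMI of the row's gene (number of cells in brackets) that also had a UMI of the column's gene, in WT (left) and KO (right), from white at 0 to dark blue at 100. Dark blocks at the top left (Sox10, Foxd3, Ngfr) and in the lower right (Phox2a, Hand2, Th, Dbh) show the groups, and the Ret row is shaded in both, with 59% Sox10 and 88% Hand2 in WT.

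Between the groups, co-detection was less frequent. Sox10 was in 18 of 61 WT cells with Phox2a (29.5%, 18.5% to 42.6%) and in 103 of 130 without it (79.2%), and in KO in 22 of 79 (27.8%) and 90 of 114 (78.9%). The gates favour this contrast, since a crest cell short of autonomic gate genes can only have entered by the glial gate. Over all cells that passed the filter, the Pearson correlation of Sox10 with Phox2a was 0.10 in WT and 0.04 in KO. No exclusion of 1 group by the other is read from these shares. Cells with a precursor gene (Sox10 or Foxd3) and an enzyme (Th or Dbh) numbered 19 in WT, 9.95% of crest cells (6.10% to 15.1%), and 21 in KO, 10.9% (6.86% to 16.2%). Their median depth was 32481 and 34518 UMIs, against 19014 and 18022.5 in cells with precursor genes alone and 15156 and 8716.5 in cells with an enzyme and no precursor gene. Cells with a precursor gene and Phox2a or Hand2 but no enzyme numbered 24 and 17. What part of the doubly positive cells were deep droplets of more than 1 cell was not tested.

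Because detection depends on depth, each cell was also thinned to 2000 UMIs. Thinning left Sox10 in 41 of the 191 WT crest cells and in 33 of the 193 of KO, against 121 and 112 before it. At this depth 0 of 42 WT and 2 of 45 KO Phox2a cells had Sox10, against 41 of 149 and 31 of 148 cells without Phox2a. A count of 0 of 42 allows a share of up to 8.41%. Gates were applied before thinning, so they favour this contrast here too. The enzymes kept much of their overlap: 13 of 21 WT and 10 of 19 KO Th cells had Dbh, against 14 of 170 and 16 of 174 cells without Th. Phox2a cells had Hand2 in 30 of 42 and 36 of 45. For Sox10 and Foxd3 the thinned shares were within counting error of each other, with Sox10 in 5 of 21 WT Foxd3 cells against 36 of 170 without Foxd3, and in 9 of 34 against 24 of 159 in KO. Cells with a precursor gene and an enzyme numbered 1 in each library after thinning.

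**Figure D4:**
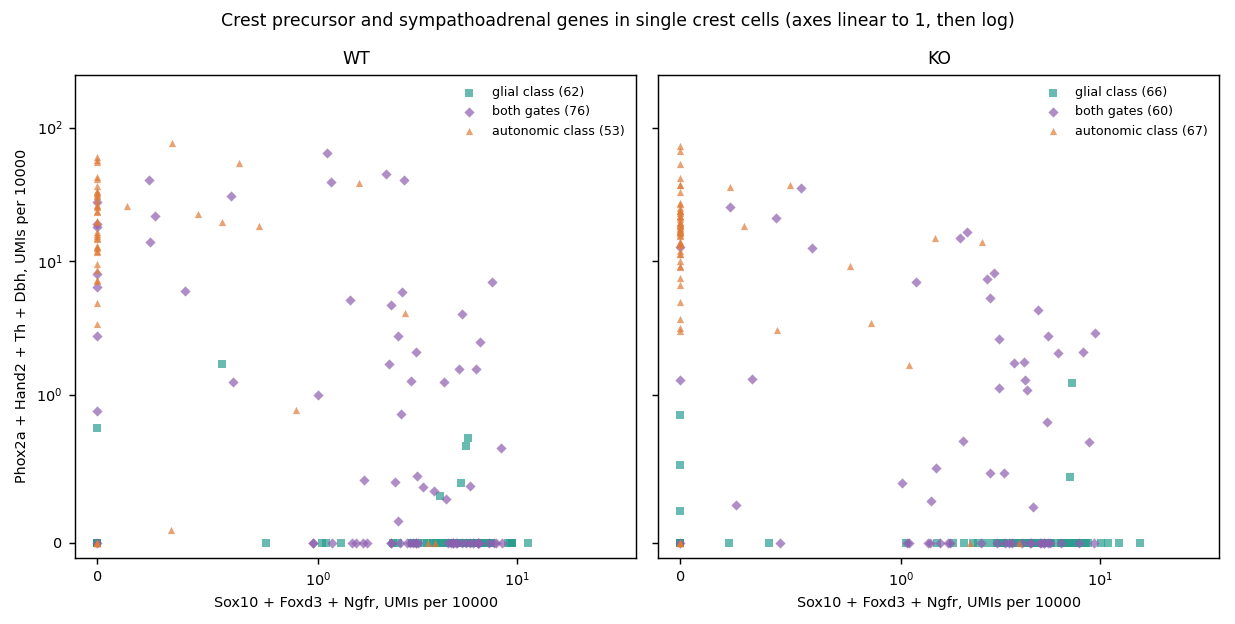
Each point is a crest cell, with UMIs per 10000 of Sox10, Foxd3 and Ngfr summed (horizontal axis) and of Phox2a, Hand2, Th and Dbh summed (vertical axis), in WT (left) and KO (right). Both axes are linear up to 1 and logarithmic beyond, and marker shape and colour give the class. Glial cells lie along the bottom, autonomic cells along the left side, and the 76 WT and 60 KO cells of both gates fill the bottom and the space between.

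Over all cells that passed the filter, the genes whose log-scaled counts ran most like those of each member were taken by the lower Pearson r of the libraries, among 15868 genes and with the 8 members left out of the ranking. These values describe 8253 WT and 8165 KO cells that share library, depth and free RNA. For Sox10 they were Ednrb (r = 0.68 in WT and 0.66 in KO), the endothelin receptor of crest precursors, and Egfl8. Foxd3 was followed by Ednrb (0.65 and 0.71), Cdh19 and Egfl8, and Ngfr by Ednrb (0.37 and 0.36) and Egfl8. Th was most like Chgb (0.79 and 0.64), Chga and Resp18, and Dbh most like Chga (0.82 and 0.83), Kcnk9 and Chgb. Chga and Chgb encode chromogranins, proteins of secretory granules. For Phox2a the leading gene was Stmn3 (0.77 and 0.74), then Tubb3 and Cfap61, for Ret it was Elavl3 (0.49 and 0.49), then Kcnk9 and Scg3, and for Hand2 it was 5033428I22Rik (0.43 and 0.40), then Hand1 and Gm34030. Among the members, r was 0.72 and 0.66 for Sox10 with Foxd3, 0.78 and 0.59 for Th with Dbh, and 0.11 and 0.03 for Sox10 with Th. Some pairs of members had a higher r than the genes named, as Ret with Dbh at 0.54 and 0.53, and Th with Phox2a at 0.74 and 0.61.

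Between the libraries, no member differed by 2-fold or more in crest cells as a whole, where all 8 had enough UMIs and where 0.727% of 9630 genes with 50 UMIs or more were at least 2-fold higher in KO and 1.06% at least 2-fold lower. In the crest cells as defined here the intervals of all 8 log2 ratios lay to 1 side of 0, below it for the enzymes, autonomic factors and Sox10 and above it for Foxd3, Ngfr and Ret, but several of these did not hold under other settings. Ratios over all crest cells also depend on how the UMIs were divided among the classes, and those within a class differed from them. Th had 446 UMIs (106 CPM) in WT and 216 UMIs (53.3 CPM) in KO, a log2 ratio of -0.99 (-1.23 to -0.75), just short of 2-fold. Where every cell had equal weight, by thinning to 2000 UMIs, the ratio of Th was -0.20 (-0.95 to 0.56), which spans 0, and that of Dbh was -0.27. Dbh, at 317 and 216 CPM, had a log2 ratio of -0.55 (-0.68 to -0.43), Hand2 -0.45 (-0.59 to -0.30), Phox2a -0.34 (-0.48 to -0.21) and Sox10 -0.23 (-0.40 to -0.06). For Sox10 the interval spanned 0 without the KO cells that had a Pdgfrb UMI, at -0.16 (-0.33 to 0.016), and with a gate of 2 markers, at -0.22 (-0.54 to 0.096). Ngfr, at 51.6 and 73.3 CPM, had 0.51 (0.25 to 0.76), Ret 0.37 (0.07 to 0.66) and Foxd3 0.33 (0.12 to 0.55). The median of all genes tested was 0.03. Shares of cells differed less than levels, with a Th UMI in 43 of 191 WT and 45 of 193 KO crest cells and a Dbh UMI in 47 and 45.

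**Figure D5:**
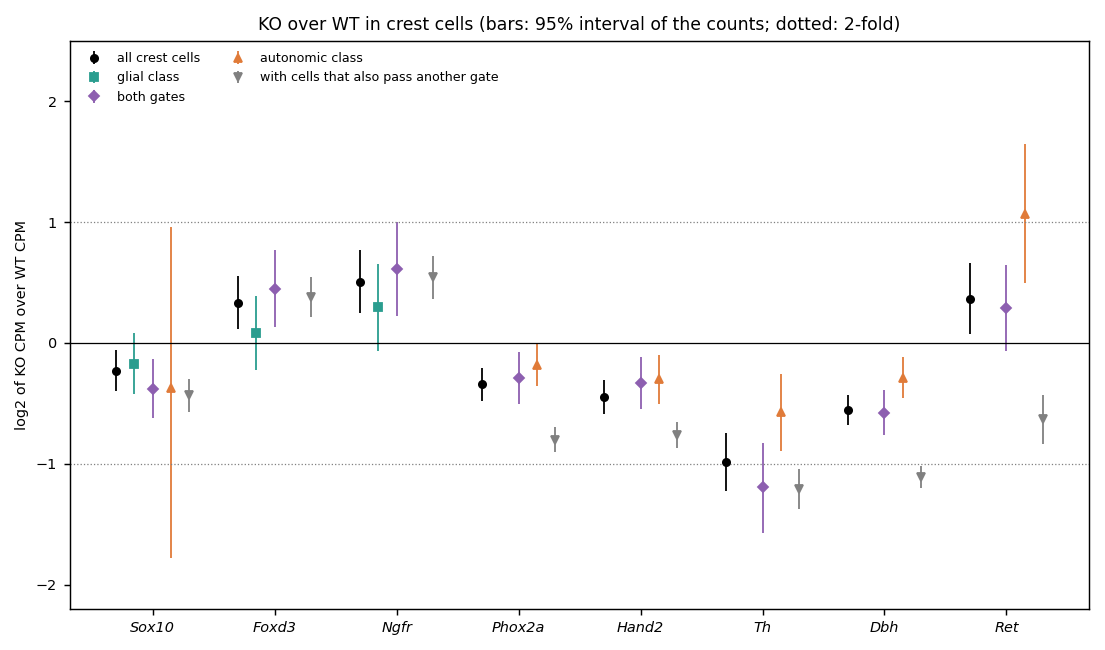
Log2 ratio of KO CPM over WT CPM of each gene (vertical axis) with 95% counting intervals, in all crest cells (black), the glial class (green), the class of both gates (purple), the autonomic class (orange) and all cells that passed a crest gate, with or without another gate (grey). Dotted lines mark 2-fold, and genes with fewer than 20 UMIs in a class are left out. Th is below 0 in each set drawn, and Ret is above 0 in crest cells (0.37) but below it in the grey set (-0.63).

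By class, Th was 2-fold or more lower in KO in the class of both gates, at a log2 ratio of -1.20 (-1.57 to -0.83), where 0.865% of 7631 genes were that much lower and 0.773% that much higher. Of the 228 WT Th UMIs in that class, 86.4% were in 5 cells, and of the 85 KO UMIs, 91.8%. In the autonomic class Th had a log2 ratio of -0.57 (-0.90 to -0.25). There Ret was 2-fold or more higher in KO, at 1.06 (0.50 to 1.65), from 41 and 77 UMIs, where 1.09% of 4496 genes were that much higher and 1.69% that much lower. Of the 5 members with 50 or more UMIs in the autonomic class, Ret was the only one past 2-fold. Of its UMIs there, 80.5% in WT and 55.8% in KO were in 5 cells, 17 of the KO UMIs being in the cell of 88901 UMIs. Without that cell, a setting added after seeing the data, Ret was at 0.88 (0.28 to 1.49), under 2-fold, and Dbh at -0.87 (-1.07 to -0.67) against -0.29 with it. The deepest WT autonomic cell, of 120366 UMIs, held 1 Hand2 UMI and 0 UMIs of Phox2a, Th, Dbh and Ret. It was kept in all ratios of this class, where it lowers the WT CPM of these genes and so raises their KO over WT ratios. The ratios without it were not taken, so whether Ret stays past 2-fold without it was not tested. In the glial class Sox10 (-0.17), Foxd3 (0.08) and Ngfr (0.29) had intervals that spanned 0. In the class of both gates they were at -0.38, 0.45 and 0.61, with intervals to 1 side of 0. Dbh was at -0.58 in the class of both gates and -0.29 in the autonomic class. In the same 2 classes Phox2a was at -0.29 and -0.18 and Hand2 at -0.33 and -0.30. Of the 381 Dbh UMIs of KO cells of both gates, the cells of 114947, 89032 and 73346 UMIs held 68, 65 and 155. These cells held 82, 65 and 45 of the 304 Phox2a and 72, 66 and 39 of the 309 Hand2 UMIs. The highest WT cells of this class held 175, 121 and 107 of 665 Dbh UMIs. Ratios of this class without such cells were not taken.

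These ratios depended on which cells were called crest. With the cells that also passed another gate included, 394 in WT and 359 in KO, the log2 ratio was -1.21 (-1.38 to -1.04) for Th, -1.11 (-1.20 to -1.02) for Dbh, -0.80 for Phox2a and -0.76 for Hand2, and that of Ret turned to -0.63 (-0.83 to -0.43). In the cells with another gate alone, Dbh was at 207 CPM in WT and 60.1 in KO and Ret at 36.3 and 10.8. Across 13 alternatives, Hand2 kept its sign in 12 and Phox2a in 10. With each cell thinned to 2000 UMIs, in 1 random draw that also gives every cell the same weight, the ratio was 0.30 for Hand2 and 0.09 for Phox2a. No direction of Phox2a, Hand2, Ngfr or Ret between the libraries is therefore read here.

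In the wider gene lists below, counts of genes past 2-fold stand beside 0.727% higher and 1.06% lower among all 9630 genes. None of these counts was tested, and no excess or lack is read from them. Of 12 crest transcription factors, all with 50 UMIs or more, the median log2 ratio was -0.13, with 1 gene 2-fold or more higher and 1 lower. Zic1 had 3 UMIs in WT and 65 in KO, mostly in the glial class, at 40.5 CPM in KO, and Msx1 was at 21.3 CPM in WT and 3.95 in KO, with 64.3 CPM in WT autonomic cells. Both were chosen after their values were seen. Those of the list with the most UMIs, by which they were chosen and not compared, were Tfap2b (76.9 CPM in WT and 59.7 in KO), Sox5 (68.6 and 82.1), Ets1 (59.2 and 62.9) and Twist1 (50.4 and 47.6), a factor of mesenchyme. By class Twist1 went both ways, at 109 CPM in WT and 16.9 in KO autonomic cells and at 52.8 and 88.5 in glial cells. Its class values were named after they were seen.

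Of 9 autonomic transcription factors none was past 2-fold, and the median was -0.10. Sox4 was at 405 CPM in WT and 517 in KO and Sox11 at 341 and 347. Sox4 was lower in the autonomic class, at 182 CPM in WT and 315 in KO, than in the glial class, at 515 and 556. Of 15 genes of catecholamine synthesis, storage and breakdown, 12 had enough UMIs, with a median of -0.07. The 1 past 2-fold was Slc18a2, the vesicular monoamine transporter, at 79.5 CPM in WT and 38.7 in KO, a log2 ratio of -1.04 (-1.32 to -0.76), named after its value was seen. Those with the most UMIs were Chgb (223 and 258 CPM), Chga (139 and 149), Ddc (78.1 and 75.2), the decarboxylase that makes dopamine, and Qdpr (70.3 and 77.2), which recycles the cofactor of Th. Pnmt, which makes adrenaline, had no UMI in crest cells of either library.

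Of 10 Schwann precursor and enteric crest genes, 8 had enough UMIs, with a median of 0.05 and none past 2-fold. Ednrb was at 492 CPM in WT and 641 in KO, and at 971 and 1061 in the glial class against 5.84 and 35.1 in the autonomic class. Fabp7 was at 226 and 352 CPM and Itga4 at 156 and 153. Of 9 neurotrophins and their receptors, 5 had enough UMIs, with a median of -0.14 and none past 2-fold. Sort1, at 28.6 and 25.7 CPM, and Sorcs2, at 13.7 and 12.6, encode partners of p75, and Ntrk3 (13.5 and 12.6) and Bdnf (11.1 and 10.1) were also found. Of 11 neuronal differentiation genes, Nefm (619 and 983 CPM), Tubb3 (439 and 371), Gap43 (439 and 578) and Nefl (412 and 579) were those with the most UMIs, the median was 0.15, and 1, Prph at 11.1 and 31.6 CPM, was 2-fold or more higher. Prph is a gate gene and was named after its value was seen. All 7 proliferation genes had enough UMIs, with a median of 0.24 and none past 2-fold. They summed to 1325 CPM in WT and 1598 in KO autonomic cells, to 1081 and 1522 in glial cells, and to 1029 and 888 in erythroid cells and macrophages.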

How the data were processed

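Raw UMI counts per gene and barcode were used as the authors deposited them. Per the labels they came from Cell Ranger 3.1.0 with the mm10 (GRCm38) reference. The tables held 1438264 WT and 1411683 KO barcodes, not normalised. The 8 genes, gates and lists were chosen with earlier results of these data known, and the class of cells passing a crest and another gate was set after seeing the data. Gates needed 3 markers. UMIs were summed over a class as CPM with exact Poisson intervals, shares of cells had exact Clopper-Pearson intervals, and KO over WT ratios had exact conditional binomial intervals, all at 95% and for counting error only. Cells were thinned to 2000 UMIs without replacement (seed 1). Likeness was Pearson r of log(1 + UMIs per 10000), over genes with a UMI in 20 or more cells of each library. The text names the 8 genes, at most 4 genes of a list by UMIs in crest cells (all of a list of up to 8), the 3 genes most like each member, Pdgfrb, and those said to be chosen after. Some gate and list genes that this rule would name are not reported here. Gene positions are from GENCODE M21. No test was run, since each genotype had 1 library. Ratios and intervals were tested on summed counts simulated with Poisson error only, which hold no spread between cells. Thinning was tested on part of the WT cells. Python 3.11.15, numpy 2.4.6, scipy 1.17.1 and pandas 2.3.3 were used, and edgeR gave TMM factors. Other gates, depth limits, mitochondrial limits, scalings and thinning were tried as alternatives.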

Additional observations from a re-analysis of the deposited data

Results flagged for a closer look

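Free RNA was taken from barcodes of at most 100 UMIs. Of barcodes of at least 500 and under 2000 UMIs, those under 1000 entered no comparison, and the others only the alternative with 1000 UMIs or more. Compared with free RNA, the barcodes of at least 500 and under 2000 UMIs held more of 2 members in 1 library each. Hand2 was at 56.9 CPM (51.2 to 63.0) in 7157 such WT barcodes against 37.0 (29.9 to 45.4) in free RNA. Phox2a was at 15.6 CPM (12.7 to 18.9) in 7267 such KO barcodes against 7.21 (4.20 to 11.5). In the other library the intervals overlapped, with Hand2 at 41.3 against 36.5 CPM in KO and Phox2a at 16.2 against 12.1 in WT. Ngfr ran the opposite way in both libraries, at 1.99 (1.06 to 3.41) against 8.45 (5.23 to 12.9) CPM in WT and 3.09 (1.88 to 4.77) against 10.2 (6.52 to 15.1) in KO, as did Dbh in WT, at 3.37 (2.11 to 5.10) against 14.9 (10.5 to 20.5). Of these barcodes, 15 in WT and 25 in KO passed a crest gate. No explanation was tested.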

How the results depend on the processing

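Of the KO over WT ratios in crest cells, those of Sox10, Foxd3, Th and Dbh kept their sign in 13 of 13 alternatives, although not always with an interval to 1 side of 0, with Th between -1.21 and -0.20 and the one past 2-fold where 1 is counted below. Ret turned to -0.083 with a gate of 4 markers and to -0.63 with the cells of another gate counted as crest. Ngfr turned to -0.11 with a mitochondrial limit of 5% and to -0.015 after thinning to 2000 UMIs. Phox2a turned to 0.69 and 0.088 under the same settings and to 0.063 with the mean CPM per cell, and Hand2 to 0.30 after thinning. The number of members past 2-fold, 0 as reported, was 1 with cells of 5000 UMIs or more, without the cells above the median plus 3 MADs, with free RNA subtracted and with TMM factors, and 2 with the cells of another gate included, a setting chosen after seeing the data. The share of crest cells was 1.53% in WT and 2.01% in KO with a gate of 2 markers, 2.69% in WT with 4, 1.94% and 2.01% with cells of 1000 UMIs or more, 1.56% and 2.85% with the mitochondrial limit of 5%, and 4.77% and 4.40% with the cells of another gate included. The number of markers was changed in every gate. With 2 markers more cells therefore also passed a gate of another lineage and were left out, and with 4 fewer did. Foxd3 among Sox10 cells was 57.4% and 66.1% with a gate of 2 markers, 12.2% and 27.3% after thinning, and 64.8% in WT when 2 UMIs were needed. Dbh among Th cells was 81.8% in KO with 5000 UMIs, 57.1% and 39.1% with the mitochondrial limit of 5%, and 61.9% in WT after thinning. Phox2a among Dbh cells was 100% in KO with the mitochondrial limit of 5%, 70.4% and 57.7% after thinning, and 97.2% in KO when 2 UMIs were needed. Sox10 among Phox2a cells was 4.55% and 8.89% with the mitochondrial limit of 5%, 0% and 4.44% after thinning, and 10.8% in KO when 2 UMIs were needed, as was Th in 23.9% of KO autonomic cells. The mitochondrial limit of 5% left 56 WT and 83 KO crest cells, and thinning lowers detection by its construction. The causes of the other changes were not tested. No paired analysis was possible because each genotype had 1 library. Shares of cells with a UMI depend on depth, and the autonomic class was the shallowest crest class, with a median of 7326 UMIs in WT and 6933 in KO. What part of its shares came from depth was not tested.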
